A study of Mus musculus with 28 samples.

Results

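Polycomb repression was followed through Suz12, a core subunit of Polycomb repressive complex 2, in mesodermal cultures with and without Brg1. The Suz12 ChIP-seq comprised 4 of the 28 samples of the series, 2 control and 2 4-OHT, and their 4 lists were taken from the 17 deposited lists of enriched regions by mark and day. Together they held 13534 of the 236604 regions in all lists. Brg1f/f; Actin-CreER mouse ESCs, in which a tamoxifen-inducible Cre is expressed from an actin promoter, were formed into embryoid bodies and given VEGF, Activin A and BMP4 for 40 h. On Day 2 the cultures received 200 nM 4-OHT in tetrahydrofuran (THF), which deletes Brg1, or THF alone as the control, and chromatin was taken on Day 4. Both conditions carried the same floxed alleles and the same Cre, and 4-OHT was given to the Brg1-deleted cultures alone, so exposure to 4-OHT and deletion of Brg1 cannot be told apart. The lists hold no measure of Brg1 itself. H3K27me3 (3 control and 3 4-OHT libraries), H3K27ac (2 and 2) and Brg1-FLAG (3) lists of the same day were read beside Suz12.

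Polycomb repressive complex 2 places methyl groups on lysine 27 of histone H3 through its catalytic subunit Ezh2 or Ezh1, and Suz12 and Eed are required for its activity. In mammalian cells the complex is found mostly at CpG-rich promoters of developmental regulators, such as the Hox genes, and its mark H3K27me3 can spread over several kilobases around them. Brg1 is the ATPase of BAF complexes, which remodel nucleosomes and are known to oppose Polycomb at some genes, and cooperate with it at others.

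The regions compared here differ in sequence as well as in position, and stretches of 150 bp of the mm9 genome are therefore shown for examples of each class, with each CpG in capitals. Each lies inside the Suz12 region shared by the lists that define its class and outside annotated exons, and those at genes are written on the strand of the gene. Promoters called in all 4 lists are represented by Pax6 (chr2:105509676-105509825, intron, 11 CpGs) and Irx1 (chr13:72099926-72100075, minus strand, intron, 5 CpGs). Promoters called in both 4-OHT lists alone are represented by Wnt5a (chr14:29319301-29319450, intron, 5 CpGs), Col4a1 (chr8:11313116-11313265, minus strand, 365 bp before the first TSS, 12 CpGs) and Zfp703 (chr8:28088886-28089035, intron, 10 CpGs). The 150 bp upstream of the first TSS, a different window from most of these stretches, held a median of 6 CpGs over all genes. In that window the median was 10 for kept, 10 for gained and 19 for the 5 lost genes.
Pax6: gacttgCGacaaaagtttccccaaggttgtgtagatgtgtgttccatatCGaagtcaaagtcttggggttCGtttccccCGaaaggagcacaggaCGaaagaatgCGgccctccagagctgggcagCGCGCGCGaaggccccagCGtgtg
Irx1: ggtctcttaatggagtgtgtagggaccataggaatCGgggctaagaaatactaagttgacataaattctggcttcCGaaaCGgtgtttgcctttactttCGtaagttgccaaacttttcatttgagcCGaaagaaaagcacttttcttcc
Wnt5a: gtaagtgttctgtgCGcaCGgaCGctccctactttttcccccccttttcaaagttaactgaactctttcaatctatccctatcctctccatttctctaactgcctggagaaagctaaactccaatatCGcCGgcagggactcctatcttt
Col4a1: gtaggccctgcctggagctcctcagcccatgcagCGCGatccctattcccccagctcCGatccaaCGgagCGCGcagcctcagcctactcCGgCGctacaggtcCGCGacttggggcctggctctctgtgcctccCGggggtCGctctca
Zfp703: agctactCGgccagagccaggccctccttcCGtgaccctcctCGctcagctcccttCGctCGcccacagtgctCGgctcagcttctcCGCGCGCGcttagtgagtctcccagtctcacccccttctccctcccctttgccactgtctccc
Away from promoters, 1 region of each class with a stretch of this length in all the lists that define it is shown on the plus strand. The region called in all 4 lists lay 26304 bp from Nr2f2 (chr7:77476701-77476850, 16 CpGs), the region called in both 4-OHT lists alone lay 3348 bp from Hapln4 (chr8:72611876-72612025, 6 CpGs), and the region called in both control lists alone lay 3789 bp from Gm9804 (chr12:50497776-50497925, 0 CpGs).
Nr2f2: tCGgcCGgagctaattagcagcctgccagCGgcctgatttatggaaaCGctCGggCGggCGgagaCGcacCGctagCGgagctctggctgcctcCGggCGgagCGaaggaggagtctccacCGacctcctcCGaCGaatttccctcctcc
Hapln4: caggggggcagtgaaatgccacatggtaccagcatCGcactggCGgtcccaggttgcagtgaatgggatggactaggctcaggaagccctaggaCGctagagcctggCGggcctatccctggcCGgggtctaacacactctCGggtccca
Gm9804: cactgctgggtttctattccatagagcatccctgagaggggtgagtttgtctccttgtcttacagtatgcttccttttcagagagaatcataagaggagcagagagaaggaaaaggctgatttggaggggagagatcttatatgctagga

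More Suz12 regions were listed after 4-OHT, whereas the length of genome they covered was similar. The control lists held 2951 and 2913 regions (replicates 1 and 2), and the 4-OHT lists held 3654 and 4016. Both 4-OHT lists were longer than both control lists, with means of 2932 ± 26.9 and 3835 ± 256 regions (SD, n = 2 each) and a ratio of 1.31. The regions covered 3.68 and 4.07 Mb in control and 3.58 and 4.77 Mb after 4-OHT, so that the 4-OHT lists were both the lowest and the highest. Median region width was 550 and 625 bp in control, against 475 and 575 bp after 4-OHT, which overlapped. Two-sided exact permutation tests gave p = 0.33 for the number of regions, p = 1 for covered length and p = 0.667 for median width, and 0.33 is the smallest p that 2 lists against 2 can give. The lists carry no score or read count, so depth is unknown, and more regions in a list cannot be told apart from deeper sequencing or better enrichment of that library. The series also holds a single Suz12 input library per condition, so a difference between the inputs cannot be told apart from one between conditions. This holds for the gained and lost classes below as well.

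**Figure D1:**
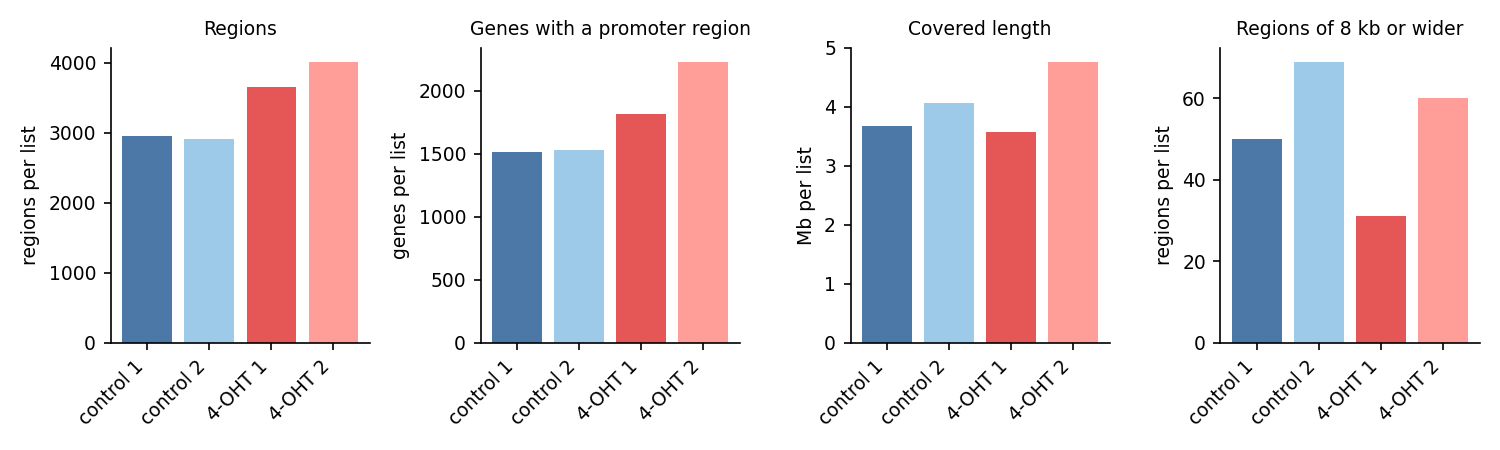
Bars give, for each Suz12 list, the number of regions, the number of protein-coding genes with a promoter region, the covered length in Mb and the number of regions of 8 kb or wider. The 4-OHT lists hold more regions (3654 and 4016 against 2951 and 2913) and reach more genes, while covered length and the number of very wide regions overlap between the conditions.

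The identity of the cultures was read from promoter H3K27ac, a mark of active promoters. H3K27ac regions were listed at 17 and 17 of 20 mesoderm genes in the control libraries and at 15 and 16 in the 4-OHT libraries, and at all 15 housekeeping genes in every library. Of 13 neural genes, 2 and 2 had H3K27ac in control and 3 and 3 after 4-OHT. Of 12 endoderm genes, 5 and 5 had it in control and 4 and 5 after 4-OHT. Of 16 pluripotency genes, 11 and 10 had it in control and 11 and 11 after 4-OHT. Over all 22208 protein-coding genes, 11060 and 10951 had it in control and 11180 and 10882 after 4-OHT. Whether any of these lists differed from that background was not tested.

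Promoters with Suz12 were kept after deletion of Brg1 with few exceptions. A gene was counted when a region overlapped 2.5 kb on either side of any of its TSSs, and this held for 1519 and 1532 of 22208 protein-coding genes in the control lists and for 1820 and 2232 in the 4-OHT lists. Both 4-OHT lists reached more genes than both control lists (ratio 1.33, p = 0.33 by the exact permutation test, the smallest possible). In all 4 lists 1306 genes were called (5.88% of all genes), and these are termed kept. Another 264 genes (1.19%) were called in both 4-OHT lists and neither control list and are termed gained, and 5 genes (0.0225%) were called in both control lists and neither 4-OHT list and are termed lost. The remaining 750 called genes had replicates of a condition that differed, and 335 of them were called in 4-OHT replicate 2 alone, against 29 in 4-OHT replicate 1 alone and 25 and 22 in a single control list.

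Most control promoters were called again after 4-OHT. Of the 1354 genes called in both control lists, 96.8% were called in 4-OHT replicate 1 and 99.3% in 4-OHT replicate 2 (98.0% ± 1.72, SD, n = 2). Between the control replicates themselves, 89.1% of the genes of replicate 1 were called in replicate 2 and 88.4% in the reverse direction. Of the genes of control replicate 1, 93.4% and 97.4% were called in 4-OHT replicates 1 and 2, and of those of control replicate 2, 92.6% and 97.8%. The 4-OHT lists were the longer ones, so these shares are not on an equal footing. Read the other way, of the 1779 genes called in both 4-OHT lists, 79.2% and 79.4% were called in the control lists. Between the 4-OHT replicates, 97.7% of the genes of replicate 1 were called in replicate 2, but 79.7% of those of replicate 2 were called in replicate 1.

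Homeobox and other developmental regulators made up the widest kept promoters. Pax6, which specifies eye and forebrain, was covered over 21475 and 22773 bp of its promoter windows in control, against 19398 and 22598 bp after 4-OHT. Hoxd3, a Hox gene of the trunk, was covered over 20822 and 23813 bp in control, against 17852 and 21218 bp after 4-OHT. The ranges of both genes overlapped between conditions, although both genes were lower after 4-OHT within each replicate number. Zic4, a zinc finger factor of the neural tube, had 16495 and 17270 bp in control, against 13701 and 15420 bp after 4-OHT, and the 4-OHT values were below both control values. Nfix, of the nuclear factor I family, had 10711 and 11854 bp in control against 9711 and 11311 bp, and Hoxb3 had 10570 and 13295 bp against 7819 and 11462 bp, again with overlap. Long windows reflect genes with several annotated TSSs, whose promoter windows add up.

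By gene family, all 39 Hox, all 6 Irx and all 6 Dlx genes were kept, as were 9 of 12 Nkx and cardiac homeobox genes, 4 of 6 sine oculis homeobox genes, 8 of 9 Pax genes, 11 of 12 Lhx and Lmx genes and 5 of 6 GATA genes, against 5.88% of all genes. None of these genes was gained or lost. Nkx2-5, an early regulator of the heart, had 3176 and 4001 bp in control, against 2866 and 3876 bp after 4-OHT, and Irx1 had 2730 and 2555 bp against 2530 and 2650 bp. These values overlapped between conditions. Gata4, a cardiac and endodermal factor, had 2340 and 3831 bp in control against 2473 and 4348 bp, with the 4-OHT replicates further apart than the conditions. Members with replicates that differed included the following. Isl1, a LIM factor of second heart field progenitors, had 400 and 1150 bp in control, against 0 and 625 bp after 4-OHT. Nkx2-6 had 0 and 227 bp in control, against 0 and 502 bp after 4-OHT.

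Signalling genes and mesoderm regulators included the few listed genes that were gained. Of 19 Wnt ligand genes, 13 were kept, 2 were gained (Wnt5a and Wnt9b) and 4 were never called. Of 10 Wnt antagonists, 2 were kept (Sfrp1 and Sfrp5), Dkk2 was gained and Frzb was called in 1 list. Of 17 T-box genes, 10 were kept and T was gained. Of 20 mesoderm genes, 6 were kept, T and Mixl1 were gained, 7 were never called and 5 had replicates that differed, so that 7 and 9 were called in the control lists and 11 and 12 in the 4-OHT lists. Over all genes 1.19% were gained, and the number called was 1519 and 1532 in control and 1820 and 2232 after 4-OHT, so these lists moved in the direction of the whole.

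Of the mesoderm genes reached by Suz12 after 4-OHT, T and Mixl1 had short regions, and Eomes, Kdr and Cxcr4 had wider ones. T (Brachyury), required for posterior mesoderm, had 0 and 0 bp in control, against 25 and 250 bp after 4-OHT. Mixl1, a homeobox factor of the primitive streak, had 0 and 0 bp in control, against 50 and 125 bp after 4-OHT. Both had no region in control, and both left the gained class when regions under 100 bp were dropped. Eomes, a T-box factor upstream of cardiac mesoderm, had 0 and 175 bp in control, against 125 and 1725 bp after 4-OHT, which overlapped. Kdr, the VEGF receptor of cardiovascular progenitors, had 0 and 650 bp in control, against 775 and 1025 bp after 4-OHT. Cxcr4, a chemokine receptor of migrating mesoderm, had 0 and 25 bp in control, against 325 and 825 bp after 4-OHT. For Kdr and Cxcr4 both 4-OHT values lay above both control values, although 1 control list was already called. Evx1 had 75 bp in 4-OHT replicate 2 alone, and Fgf8 had 25 bp in control replicate 1 alone.

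Among the remaining lists, no gene was gained or lost. Of 13 neural genes matched in the annotation, 10 were kept. Of 12 endoderm genes, 6 were kept, among them Foxa2 (5701 and 6206 bp in control, 3700 and 5626 bp after 4-OHT) and Sox17 (3907 and 4407 bp against 3757 and 4157 bp). Foxa2 was lower in both 4-OHT lists than in both control lists, and Sox17 overlapped. Of 16 pluripotency genes, 8 were kept, and Pou5f1 and Nanog, core factors of the pluripotent state, were called in no list. Of 13 genes that the study names as upregulated without Brg1, 9 were kept and 1 was called in a single list, and of 6 that it names as downregulated, 2 were kept and 2 (Kdr and Cxcr4) had replicates that differed. Of the genes for chromatin complexes, 1 of 11 PRC2 genes, 3 of 16 PRC1 CBX and PCGF genes and 1 of 21 BAF genes were kept, against 5.88% of all genes, and Cbx2, Pcgf5 and Smarca2 were called in some of the lists. The 15 housekeeping genes were called in no list.

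The 264 gained genes corresponded to 256 loci, since some neighbours share a region. Their Suz12 regions were short, with a median of 200 bp in 4-OHT replicate 1 and 487.5 bp in replicate 2, whereas kept promoters had medians of 1100 and 1200 bp in control, against 1175 and 1575 bp after 4-OHT. Replicate 2 was the wider at 215 of the gained genes and replicate 1 at 38. At 54 genes both 4-OHT lists covered at least 500 bp, and at 10 genes both covered at least 1000 bp.

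The widest gained promoter was that of Cdh11 (chr8:105156895-105309011, minus strand), a mesenchymal cadherin, with no region in control but 1000 and 3375 bp after 4-OHT. Col4a1 and Col4a2, which encode basement membrane collagen chains from a shared promoter at chr8:11312826, had no region in control but 1800 and 2475 bp after 4-OHT. Wnt5a (chr14:29317936-29340633), a ligand of non-canonical Wnt signalling, had no region in control but 900 and 3300 bp after 4-OHT. The 4-OHT replicates thus differed by more than 3-fold at Cdh11 and Wnt5a and by less at Col4a1 and Col4a2. Zfp703 (chr8:28087808-28091933), a zinc finger repressor, had no region in control but 1558 and 2033 bp after 4-OHT. Of the listed signalling genes, Dkk2, a secreted Wnt modulator, had 150 and 800 bp and Wnt9b had 50 and 150 bp after 4-OHT, with none in control. Nrp1, a receptor for semaphorins and VEGF (0, 0, 650 and 2225 bp in control replicates 1 and 2 and 4-OHT replicates 1 and 2), and Nog, a BMP antagonist (0, 0, 1175 and 1675 bp), were picked from the next widest after their values were seen.

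**Figure D2:**
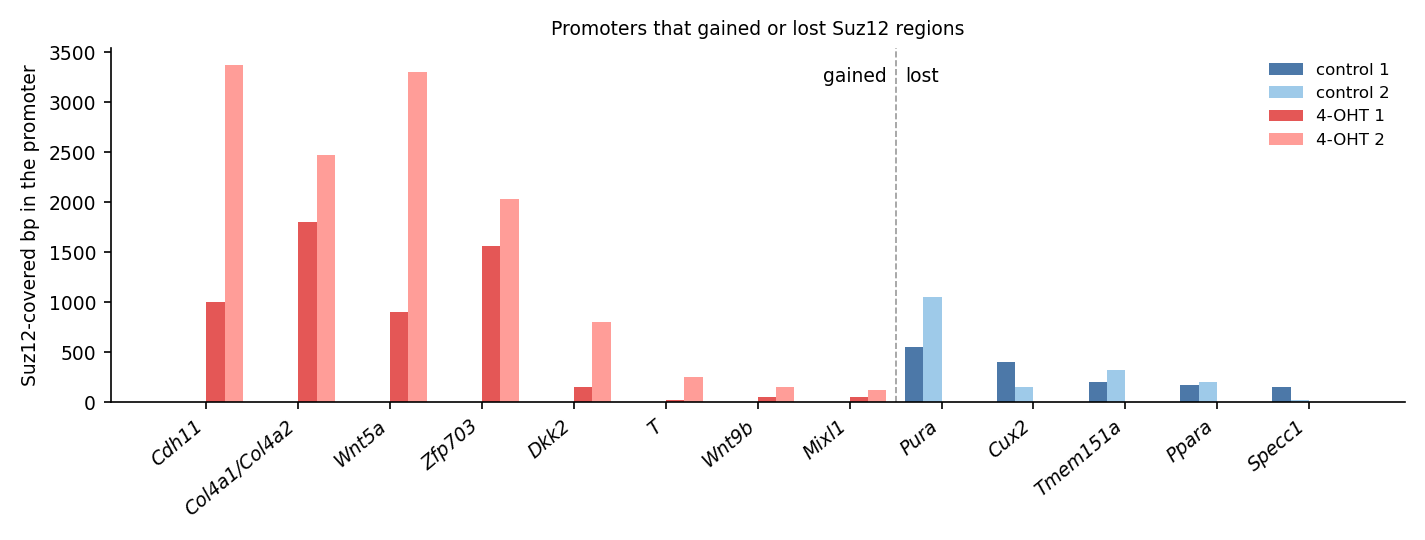
Bars give the Suz12-covered length in bp within 2.5 kb of the TSSs in each of the 4 lists, for the widest and the listed gained genes and for the 5 lost genes. Gained promoters reach 3375 bp (Cdh11, 4-OHT replicate 2), T reaches 250 bp, and the widest lost promoter, Pura, reaches 1051 bp in control replicate 2.

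Only 5 genes were lost in the classes set by the 4 lists, and their regions were narrow. Pura, which encodes a single-stranded DNA binding protein, had 550 and 1051 bp in control, with none after 4-OHT. Cux2, a homeobox factor of upper-layer neurons (chr5:122308396-122500111), had 400 and 150 bp in control. Tmem151a had 200 and 325 bp, Ppara, a nuclear receptor of fatty acid oxidation, had 175 and 200 bp, and Specc1 had 150 and 25 bp, each with none after 4-OHT. H3K27me3 was still listed at all 5 genes in at least 2 of 3 4-OHT libraries, over shorter lengths at Tmem151a, which had 2100, 2894 and 2669 bp in control, against 275, 650 and 569 bp after 4-OHT, without overlap. The median over the 5 genes lay between 1200 and 1750 bp in the control libraries and was lower in each 4-OHT library. When each list was held to its 2913 widest regions, 25 genes were lost and 162 gained.

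At the level of regions, most losses as listed lay within 10 kb of a kept region and most gains did not. Regions of the 4 lists that shared at least 1 bp merged into 4674, of which 1806 were called in all 4 lists, 48 in both control lists alone and 360 in both 4-OHT lists alone. Of the 48 lost regions, 42 lay within 10 kb of a kept region (87.5%, exact 95% interval 74.8% to 95.3%), at a median distance of 0.414 kb. Of the 360 gained regions, 53 did so (14.7%, 11.2% to 18.8%), at a median distance of 343 kb. Intervals here and below cover counting error only and treat neighbouring regions as independent. Of the lost regions, 5 lay nearest to Nr2f1, a nuclear receptor of neural and cardiac tissue, and others lay nearest to Gata3, Foxf2, Pou3f3, Tbx5, Hoxd3 and Hoxc11. The share of lost regions near a kept one was 69.7% with equal list lengths, and it was 41.7% (5 of 12) once regions of a list within 1 kb of each other were joined, while that of gained regions was 12.1% and 8.00%. The share was not worked out for the other merged regions, so neither class is set against a background. These distances were chosen for description after the data had been seen.

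Gained regions were rich in CpG and lost regions were poor in it. The median CpG density was 8.96 per 100 bp in 299 gained promoter regions, 6.77 in 1439 kept promoter regions and 3.47 in 19 lost promoter regions, where a promoter region lies within 2.5 kb of any annotated TSS, coding or not. Away from promoters it was 7.20 in 61 gained, 4.86 in 367 kept and 1.33 in 29 lost regions. Median GC content followed the same order, at 67.6%, 62.0% and 54.0% for gained, kept and lost promoter regions and 63.1%, 57.0% and 45.3% for distal ones. Kept regions are wider than the others, and a wide region includes more flanking sequence. In a fixed window of 500 bp on each side of the first TSS, the observed over expected CpG ratio was 0.72 for kept genes and 0.69 for gained genes, against 0.55 for all genes. By that window 71.5% of kept and 68.1% of gained genes were CpG-rich (GC content of at least 50% and a ratio of at least 0.6), against 44.3% of all genes, so that the promoters of gained genes were close to those of kept genes in composition. The 5 lost genes had a median ratio of 0.74 in that window and all 5 were CpG-rich, so the order seen for regions did not hold for the start sites of the lost genes.

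H3K27me3, which did not enter the classes, was already present at most gained promoters in control cultures. In at least 2 of the 3 control H3K27me3 libraries, a region was listed at 238 of the 264 gained genes (90.2%), at 1304 of the 1306 kept genes (99.8%) and at 930 of the 19883 genes without Suz12 in any list (4.68%). Of the 750 called genes with replicates that differed, 87.5%, 87.9% and 82.1% had a region in control libraries 1 to 3. Of gained genes 91.3%, 89.0% and 85.2% did, so the mark was not particular to them. Among genes with no Suz12 region in either control list, 1454 had H3K27me3 in at least 2 of 3 control libraries, and 16.4% of them gained Suz12 (14.5% to 18.4%). Of the 19057 with H3K27me3 in fewer than 2 control libraries, 0.136% did (0.0891% to 0.200%). The share of gained genes with H3K27me3 was 91.4% with equal list lengths and ranged from 83.3% to 92.1% when each Suz12 list was left out in turn. Cdh11 had H3K27me3 over 936, 1675 and 1125 bp in control, against 1086, 3476 and 4476 bp after 4-OHT, and Wnt5a over 1150, 2150 and 3025 bp against 2075, 3150 and 4825 bp. At both genes the ranges overlapped. Over all gained genes the median length was 891, 1175 and 900 bp in control, against 500, 1100 and 475 bp after 4-OHT, so the higher values at Cdh11 and Wnt5a were not those of the class. Mixl1 was among the exceptions, with no H3K27me3 region in control and 25, 0 and 25 bp after 4-OHT.

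**Figure D3:**
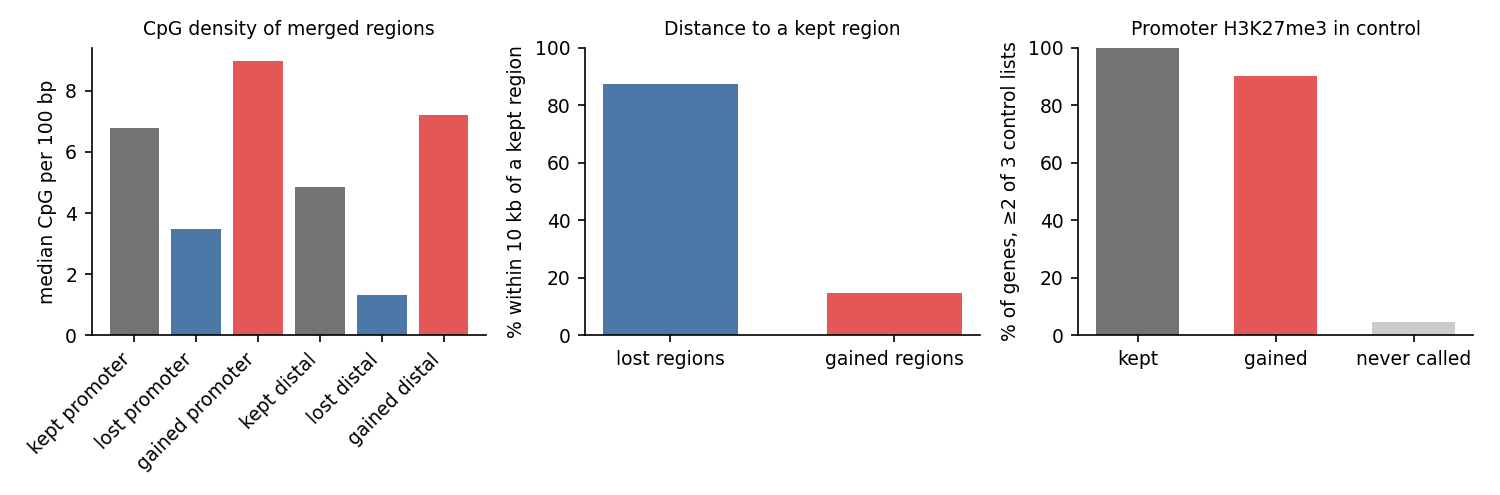
Left, median CpG per 100 bp of merged Suz12 regions by class and place. Middle, the percentage of lost (87.5%) and gained (14.7%) regions within 10 kb of a kept region. Right, the percentage of genes with promoter H3K27me3 in at least 2 of 3 control libraries, which is 99.8% for kept, 90.2% for gained and 4.68% for never called genes.

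Whether H3K27me3 changed at these promoters was asked over the 3 control and 3 4-OHT libraries. At kept promoters 97.4%, 99.9% and 99.5% of genes had a region in control and 90.5%, 99.7% and 96.0% after 4-OHT. At gained promoters the shares were 91.3%, 89.0% and 85.2% in control and 78.4%, 90.2% and 76.5% after 4-OHT. At the 5 lost promoters 4, 5 and 5 genes had a region in control and 4, 5 and 4 after 4-OHT. The conditions overlapped in each class, with adjusted p = 0.45, 0.45 and 1 for kept, gained and lost genes by two-sided exact permutation tests, Benjamini-Hochberg adjusted over 3 classes, of which the smallest raw p possible is 0.1. Over all genes the H3K27me3 libraries reached 3666, 3132 and 2950 genes in control and 2698, 2891 and 2486 after 4-OHT, so fewer genes were reached overall. In no class did more promoters carry H3K27me3 on average after 4-OHT. Presence of a region was close to its maximum at kept promoters, and the covered length gave more room. Among genes with H3K27me3 in every control library, every 4-OHT library covered less than every control library at 103 of 1266 kept genes (8.14%), 23 of 208 gained genes (11.1%) and 456 of 2645 genes in all (17.2%), and covered more at 0, 3 and 6. The median length at kept promoters was 1700.5, 3351.5 and 3075 bp in control, against 1025, 2904 and 2450 bp after 4-OHT, with overlap between the libraries. Within each replicate number, both the share and the median length at kept promoters were lower after 4-OHT. At gained promoters the median length was also lower within each number, but the share was higher in replicate 2. Whether the numbers mark pairs was not tested for H3K27me3, and the permutation tests ignore them.

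Active marks were less common at Suz12 promoters, and their regions were shorter at a part of the gained ones. H3K27ac was listed in both control libraries at 83 of 264 gained genes (31.4%), 207 of 1306 kept genes (15.8%) and 10073 genes never called by Suz12 (50.7%). Among the genes with H3K27ac in both control libraries, both 4-OHT libraries covered less than both control libraries at 28 of 83 gained genes (33.7%), 52 of 207 kept genes (25.1%) and 1434 of 10602 genes in all (13.5%). The reverse was seen at 15 gained genes (18.1%), 75 kept genes (36.2%) and 4386 genes in all (41.4%). At Cdh11 H3K27ac covered 2475 and 3525 bp in control, against 50 and 575 bp after 4-OHT, and at Nrp1 975 and 1623 bp against 0 and 425 bp. At T it covered 1400 and 1750 bp in control, against 1000 and 1050 bp after 4-OHT, and at Wnt5a 2725 and 3625 bp against 2500 and 2975 bp. Cdh11, Nrp1 and T were lower in both 4-OHT libraries than in both control libraries, by a larger part at Cdh11 and Nrp1 than at T, whereas the values of Wnt5a overlapped. At 8 gained genes, Adrb3, Ankrd58, Crabp2, Fam38b, Fbn2, Fgd5, Lmo1 and Syne2, H3K27ac went from listed in both control libraries to neither 4-OHT library. This was 3.03% of gained genes, against 17 kept genes (1.30%) and 174 never called genes (0.875%), and it was 8 of the 83 gained and 17 of the 207 kept genes that had H3K27ac in both control libraries. Zfp703 and the metallothionein genes Mt1 and Mt2 carried H3K27ac of at least 1425 bp in every library while they gained Suz12. Brg1-FLAG was listed in at least 2 of 3 libraries at 19 gained genes (7.20%), 64 kept genes (4.90%) and 706 never called genes (3.55%), and its replicate 3 reached 40 genes in all against 2083 and 1803. The sample labels give the Brg1-FLAG libraries the floxed genotype, whereas the study describes a FLAG-tagged Brg1 line.

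Width was compared where all 4 lists had a region, since the lists give no other graded value. Of 1806 merged regions tested by limma on log2 covered length, 0 passed an adjusted p of 0.05 (0%), and of 1306 kept promoters 0 passed (0%). At an unadjusted p under 0.05, 93 regions were wider and 27 narrower after 4-OHT, and 86 promoters were wider and 16 narrower. With each list centred on its median, 127 regions were wider and 131 narrower and 92 promoters were wider and 132 narrower at that level, and 3 wider and 6 narrower regions passed the adjusted threshold, so the direction rests on the scaling. The median log2 change was 0.02 for regions and 0.09 for promoters, and it was −0.11 and −0.04 without 4-OHT replicate 2, when 25 regions were wider and 189 narrower and 35 promoters were wider and 123 narrower at an unadjusted p under 0.05. Both 4-OHT lists covered more than both control lists at 360 of 1306 kept promoters (27.6%) and less at 107 (8.19%). At 1181 of the 1306 promoters 4-OHT replicate 2 was wider than 4-OHT replicate 1. In widths simulated from each region's own estimated spread, limma recovered 15% of regions changed by 1 log2 unit and 66% of those changed by 2. Smaller changes would mostly be missed in such data. The simulation drew regions independently and did not keep shifts common to a whole list, so its shares are a rough guide only.

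The promoters with the smallest p in each direction are given as a description. Plxna4, a semaphorin receptor subunit, had 750 and 575 bp in control, against 1850 and 1875 bp after 4-OHT, a log2 change of 1.5 ± 0.21 (SE). Abtb2 had 225 and 225 bp against 925 and 1050 bp, and Scube3, a secreted signalling glycoprotein, had 300 and 200 bp against 1200 and 1400 bp. Narrower promoters were those of Neurog3, a proneural and endocrine pancreas factor, with 3313 and 3013 bp in control, against 2263 and 2388 bp after 4-OHT, a log2 change of −0.44 ± 0.09. Prdm13 had 4035 and 4110 bp against 3460 and 3285 bp, and the guidance cue Ntn1 had 4700 and 4600 bp against 4025 and 4050 bp. In all 6 genes the 4-OHT values did not overlap the control values, and each had limma adjusted p = 0.595. Of the regions, the smallest p belonged to one 860 bp from a Hoxc6 TSS (chr15:102833451-102839050), with 4625 and 5000 bp in control, against 1400 and 1825 bp after 4-OHT, a log2 change of −1.59 ± 0.17 and limma adjusted p = 0.180. Of the listed Wnt ligands, Wnt11, a ligand active in heart formation, had 700 and 700 bp in control, against 1375 and 2350 bp after 4-OHT (log2 change 1.36 ± 0.33).

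The size of the difference varied with width in 4-OHT replicate 2, and this was not tested. Among 276 kept regions with a mean covered length under 500 bp, the median log2 ratio to control was −0.04 in 4-OHT replicate 1 and 0.87 in 4-OHT replicate 2. Among 63 regions of at least 8 kb, it was −0.14 and 0.00. Both 4-OHT lists lay above both control lists at 81 and below at 17 of the narrowest regions, but above at 3 and below at 17 of the widest. The widest class also came in more pieces in part of the lists, with means of 2.40 and 1.48 separate regions per merged region in control and 3.62 and 2.05 after 4-OHT. The longest unbroken stretch in it averaged 10025 and 12145 bp in control, against 7900 and 10061 bp after 4-OHT, where replicate 2 of 4-OHT and replicate 1 of control nearly coincided. The 95th percentile of region width was 4887.5 and 5610 bp in control, against 3600 and 4550 bp after 4-OHT, and the widest single region was 25025 and 40875 bp against 19850 and 20500 bp. Both were lower in both 4-OHT lists, at the smallest p possible (p = 0.33, exact permutation test). The widest single regions were not at the same loci. In control they lay in the Hoxa and Hoxd clusters, and after 4-OHT they lay outside the Hox clusters. Joining, threshold and depth of a list act on widths in the same way, and their part was not tested.

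**Figure D4:**
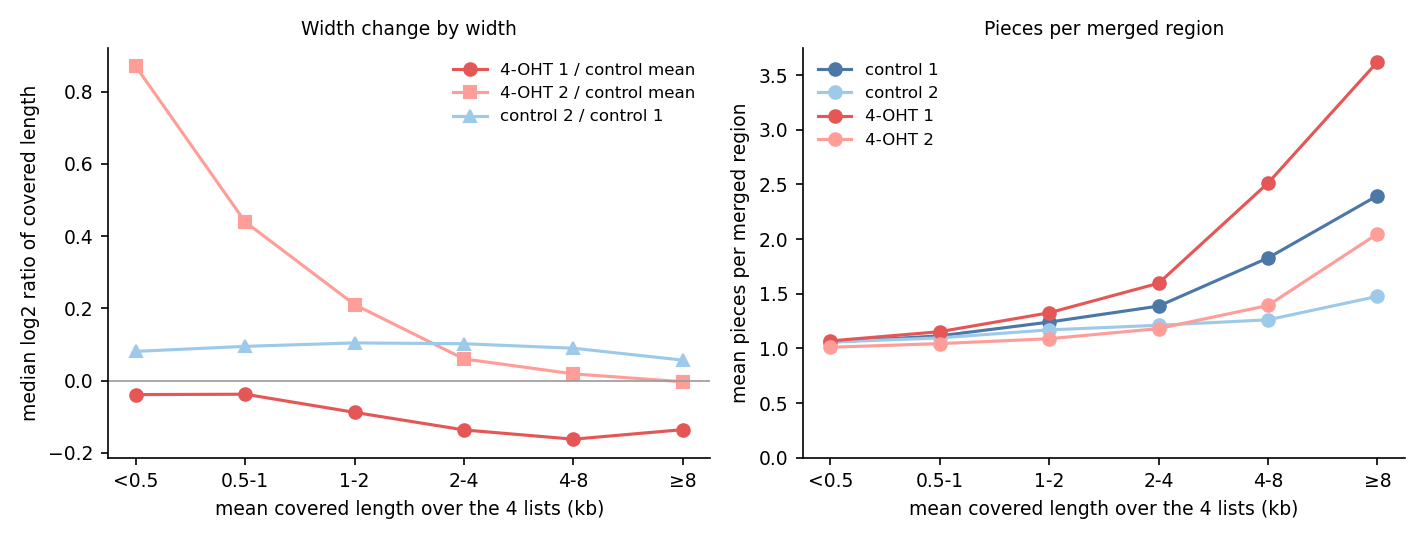
Left, the median log2 ratio of covered length of each 4-OHT list to the control mean, and of control replicate 2 to control replicate 1, for merged regions called in all 4 lists, by mean covered length in kb. Right, the mean number of separate regions per merged region in each list. In 4-OHT replicate 2 the ratio runs from 0.87 in the narrowest to 0.00 in the widest regions, whereas 4-OHT replicate 1 stays below 0.

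The Hox clusters, which hold long Polycomb domains, were read in the same way as single loci. Each cluster was taken from its first to its last gene with 10 kb on each side. In the Hoxa cluster (chr6:52095366-52220874) 26 and 24 regions were listed in control and 46 and 31 after 4-OHT. The counts for Hoxc were 49 and 40 in control, against 51 and 50 after 4-OHT. They overlapped between conditions for Hoxb (46 and 34 against 53 and 46) and Hoxd (23 and 14 against 28 and 20). The longest unbroken region of Hoxa was 25 and 25.1 kb in control and 11.7 and 13.1 kb after 4-OHT. In the Hoxd cluster (chr2:74496367-74613200) the longest was 19.0 and 40.9 kb in control and 11.2 and 11.3 kb after 4-OHT. In the Hoxc cluster (chr15:102741534-102877274) it was 11.6 and 18.2 kb against 7.03 and 10.8 kb. In these 3 clusters the longest region was shorter in each 4-OHT list than in either control list, whereas in the Hoxb cluster (chr11:96045630-96239570) they overlapped (15.1 and 19.6 kb against 8.82 and 15.2 kb). The covered length differed less. It was 86.8 and 98.1 kb in control and 76.5 and 90.6 kb after 4-OHT for Hoxa, which overlapped, and 88.7 and 101 kb against 67.2 and 84.9 kb for Hoxc, which did not. For Hoxd it was 71.6 and 80.1 kb against 61.2 and 71.5 kb, and for Hoxb 82.6 and 93.3 kb against 66.2 and 85.3 kb. Within each replicate number, covered length and longest region were lower after 4-OHT in every cluster. At the promoters of the 39 Hox genes, all kept, 15 were covered less in both 4-OHT lists than in both control lists and 1 was covered more. The shares over all kept promoters were 8.19% and 27.6%, but these had control medians of 1100 and 1200 bp, against 5001 bp for Hox. Covered length cannot exceed the promoter window. Several Hox promoters filled it in both control lists, such as Hoxb4 and Hoxd12 (5001 bp), and could not be covered more. Wide merged regions leaned the same way, with 33 below and 5 above of the 168 regions of 4 to 8 kb. Genes of a cluster also share their regions. With 2 lists against 2, none of these differences can pass a permutation test.

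**Figure D5:**
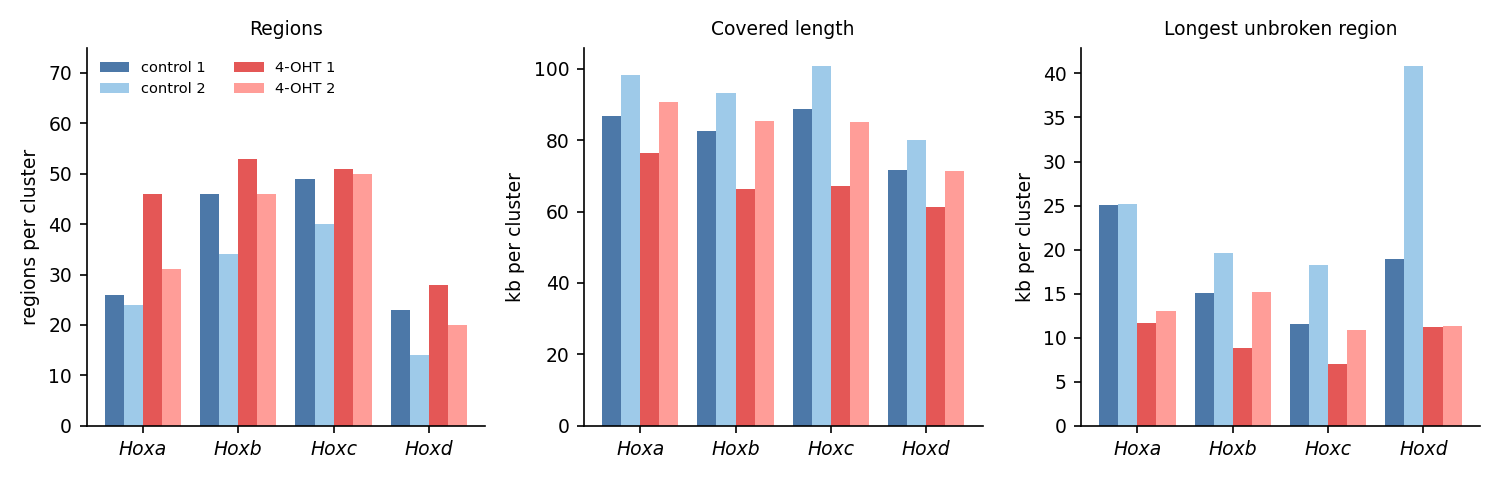
Bars give the number of Suz12 regions, the covered length in kb and the longest unbroken region in kb in each Hox cluster with 10 kb on each side, for each of the 4 lists. The longest region is shorter in both 4-OHT lists than in both control lists at Hoxa, Hoxc and Hoxd, and overlaps at Hoxb.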

How the data were processed

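Reads were aligned to mm9 with Bowtie per the labels, and regions enriched over input were called by the authors in each library separately with a Poissonian model. The authors deposited, at a threshold of 1e-12 for Suz12, the start and end of each region on a 25 bp grid, without a count, score or p-value for any of them. Read depth is therefore unknown, and other filters are not given in the sources used here. Positions fitted the chromosome lengths of NCBIM37, whose GENCODE annotation gave 22208 protein-coding genes on chromosomes 1 to 19 and X, and 86803 TSSs. A promoter was called by an overlap of at least 1 bp with 2.5 kb on either side of any TSS.

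Totals were compared by two-sided exact permutation tests, and log2 covered lengths by limma 3.58.1 with a mean-variance trend in R 4.3.3, Benjamini-Hochberg adjusted over all features, at an adjusted p of 0.05. Limma was tested on simulated data, in which it recovered 28% of 200 promoters changed by 1 log2 unit and 64.5% of those changed by 2. Python 3.11.15, NumPy 2.4.6, SciPy 1.17.1, Matplotlib 3.10.9 and pysam 0.24.0 were used. Named were members of the gene lists that were lost, gained or changed and up to 4 others per list, the 5 widest genes of each class, and, as none passed limma, the 3 with the smallest p in each direction. Listed genes whose replicates differed, Nrp1, Nog, Mt1, Mt2 and the genes named for H3K27ac were added after their values were seen. The genes and lists were chosen with earlier results of these data known. The labels number the replicates, and the study describes Suz12 as biological duplicates. A listed gene and a sequence are not reported here.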

Additional observations from a re-analysis of the deposited data

How the results depend on the processing

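The number of regions per list kept its direction with regions under 100 bp dropped, regions joined within 1 kb and each list left out. Equal list lengths fix that number, so they were not applied to it. The number of promoters kept its direction with short regions dropped, other promoter distances, the first TSS alone and an overlap of at least 100 bp. It also did so with equal list lengths and with each list left out. With 1 list left out the ratio of 4-OHT to control ranged from 1.25 to 1.37 for regions and from 1.19 to 1.46 for promoters. For covered length, a ratio of 1.08 in all lists, the range was 0.922 to 1.23, and the value below 1 was that without 4-OHT replicate 2. With each list held to its 2913 widest regions, the lost genes numbered 25, the gained genes 162 and the share of control promoters still called was 95.7%, and the ratio for promoters was 1.15. Leaving out 1 list gave 10 to 43 lost genes (43 without 4-OHT replicate 2, 27 and 30 without control replicate 1 and 2), 293 to 599 gained genes (599 without 4-OHT replicate 1) and a share of 95.2% to 99.3%, since fewer lists then decide a class. Limma called 0 regions in either direction, but 3 wider and 6 narrower when each list was centred on its median, the one near Hoxc6 among the narrower with adjusted p = 0.00103, and from 0 to 1 wider with 1 list left out. It called 0 promoters under all 11 alternatives. Centring moved the median log2 change to −0.074 for regions and −0.15 for promoters. With 1 list left out that median ranged from −0.11 to 0.19 for regions (−0.11 without 4-OHT replicate 2, −0.03 without control replicate 1 and 0.19 without 4-OHT replicate 1) and from −0.044 to 0.27 for promoters, the ends being those without 4-OHT replicate 2 and 1. Without 4-OHT replicate 2, 25 regions were wider and 189 narrower at an unadjusted p under 0.05, so the direction of the uncorrected changes rests on that library. In sets called in at least 2 lists, 446 regions were wider and 68 narrower at that level. T left the gained class under 4 of 6 promoter settings and Mixl1 and Wnt9b under 3, whereas Cdh11, Col4a1, Col4a2, Wnt5a, Zfp703 and Dkk2 stayed in it under all 6. Pura and Specc1 stayed lost under 4 of 6. The alternatives for distances and for H3K27me3 at gained genes were chosen after seeing the data. The cause of these shifts was not tested. Unknown depth limits all of them.

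The replicate numbers of the labels were not taken as pairs. The deviations of same-numbered lists from their condition means correlated at 0.127 over 1806 regions, with only 2 numbers. Within numbers (the replicate block), the ratio of covered length was 0.971 for replicate 1 and 1.17 for replicate 2, and that of regions was 1.24 and 1.38. Limma with the replicate block called 0 regions and 0 promoters, with 132 regions wider and 85 narrower at an unadjusted p under 0.05.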
